A study of Rattus norvegicus with 6 samples.

Results

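Gene expression of the enzymes and the transporter that make, recover and recharge glutathione was examined in the renal cortex of rats given TBBC, a sulfur-bridged phenolic antioxidant whose full name is 4,4'-thiobis(6-tert-butyl-3-methylphenol). The genes were Gclc, Gclm, Gss, Slc7a11, Ggt1, Gsr, Glrx, Pgd and Me1. They were chosen with the TBBC against vehicle values of these same arrays in view, because Gclc went against the others. Their fold changes between the groups are therefore a description, with no test. Members were the array probes whose transcript accession maps to one of the 9 genes. This gave 13 probes of 8 genes out of 61537 probes, of which 28206 could be named and stood for 15645 genes. Pgd had no matched probe and was not analysed here.

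The 3 TBBC rats received 300 mg/kg/day for 4 weeks and the 3 vehicle rats received corn oil for the same time. All were male Sprague-Dawley (Crl:CD(SD)) rats bought at 5 weeks of age and kept on a basal diet. Each animal gave 1 single-colour Agilent array of renal cortex, and the replicates are biological per the series' design. Levels are given as the log2 of a probe's signal over the 75th percentile of its array, so that a difference of 1 is a doubling, and levels of different probes are not compared with each other.

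Glutathione is a tripeptide of glutamate, cysteine and glycine. Glutamate-cysteine ligase, made of the catalytic subunit Gclc and the modifier subunit Gclm, joins the first pair of amino acids in the rate-limiting step, and glutathione synthetase (Gss) adds glycine. Cystine enters cells through the exchanger Slc7a11, which works with the heavy chain Slc3a2. Glutathione reductase (Gsr) returns oxidised glutathione to its reduced form with NADPH, which the pentose phosphate pathway and malic enzyme (Me1) supply. In the kidney the proximal tubule carries gamma-glutamyltransferase (Ggt1) on its brush border, where it splits filtered glutathione so that its amino acids can be taken up again. Several of these genes are known targets of the transcription factor Nrf2, which binds antioxidant response elements.

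The promoters of Gclc, Gclm and Me1 are shown because the results below turn on the ligase pair, and because Gclm and Me1 were the members whose promoter held the core of an antioxidant response element. Each is the 250 bases before the annotated transcription start in RefSeq assembly GRCr8, 5′ to 3′ on the gene's strand, at chr8:87510226-87510475 on the plus strand for Gclc, chr2:213031885-213032134 on the plus strand for Gclm and chr8:96540245-96540494 on the minus strand for Me1. Capitals mark the match to the core TGACNNNGC.
Gclc: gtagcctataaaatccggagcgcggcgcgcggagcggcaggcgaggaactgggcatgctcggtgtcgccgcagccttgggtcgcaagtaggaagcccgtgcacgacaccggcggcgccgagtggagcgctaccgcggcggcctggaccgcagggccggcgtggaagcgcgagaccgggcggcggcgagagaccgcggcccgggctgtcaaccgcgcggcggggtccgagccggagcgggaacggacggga
Gclm: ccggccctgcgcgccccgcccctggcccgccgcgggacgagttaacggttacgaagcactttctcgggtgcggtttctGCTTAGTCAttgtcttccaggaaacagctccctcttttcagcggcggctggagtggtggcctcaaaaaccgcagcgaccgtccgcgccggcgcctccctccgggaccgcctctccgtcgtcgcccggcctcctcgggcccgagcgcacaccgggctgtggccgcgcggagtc
Me1: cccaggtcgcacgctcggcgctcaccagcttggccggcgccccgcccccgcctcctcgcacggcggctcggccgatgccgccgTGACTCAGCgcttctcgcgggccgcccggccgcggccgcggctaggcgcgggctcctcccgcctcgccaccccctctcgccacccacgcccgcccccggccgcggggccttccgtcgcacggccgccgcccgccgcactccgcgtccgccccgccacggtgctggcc
In Gclm the match lies 172 to 164 bases before the start and reads TGACTAAGC on the opposite strand. In Me1 it lies 167 to 159 bases before the start on the gene's strand. The core was searched on both strands of windows that reach 50 bases past the start, and 12.1% of all 33469 RefSeq promoters held it, so 2 of 8 members with a promoter entry is a description only. The AP-1 motif TGANTCA was found in Glrx and, inside the response element core, in Me1 (7.33% of all promoters), and TGATGNAA, an element bound by C/EBP-ATF dimers, in 0 of the 8 (3.98% of all promoters).

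On each array 67.1% to 70.9% of probes lay well above background and no spot was saturated. The vehicle arrays and TBBC 1 shared slide 1, while TBBC 2 and TBBC 3 were on slide 2, so within a slide the groups can be compared through TBBC 1 alone. In limma (Benjamini-Hochberg adjustment over 32956 transcripts, each named gene represented by its brightest tested probe), 175 transcripts passed an adjusted p of 0.05, which is 0.531% of those tested. Of the 8 members, 0 passed in either direction, and at an unadjusted p under 0.05 there were 2 of 8, beside 20.0% of all transcripts. In 2 of the 8 members every array of one group lay beyond every array of the other (Slc7a11 higher, Glrx lower), as in 28.3% of all transcripts. As the members were picked on this contrast, nothing is read from these counts. All 8 genes passed the filter on dim probes. The median log2 fold change of the members was -0.25, with 3 positive and 5 negative, beside a median of -0.02 over all transcripts.

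The values did not place Gclc alone against the other members. Gss, Ggt1, Glrx and Me1 also had lower means in TBBC rats than in vehicle rats, and Slc7a11, Gclm and Gsr had higher ones. The plot of the members by array shows these values.

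**Figure D1:**
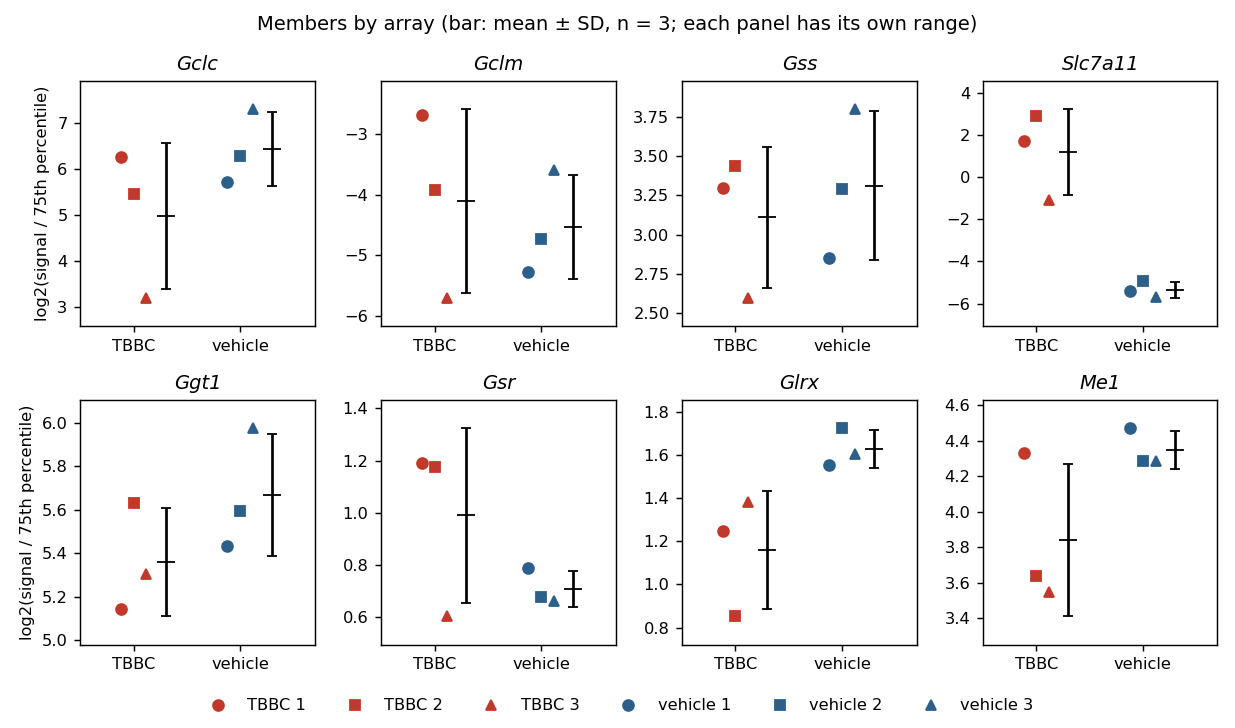
Level of each member (log2 of signal over the array's 75th percentile, y axis with its own range in each panel) in the 3 TBBC and 3 vehicle rats; symbols are single arrays and bars the mean ± SD. Slc7a11 lies higher in every TBBC array and Glrx lower, while Gclc, Gclm and Gss overlap between the groups, with TBBC 3 the lowest of the 6 arrays in all of these last 3 genes.

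Glutathione synthesis comes first. Gclc, the catalytic subunit of the ligase, had log2 levels of 6.27, 5.45 and 3.20 in TBBC 1 to 3, against 5.72, 6.29 and 7.30 in vehicle 1 to 3. TBBC 1 lay inside the vehicle range, TBBC 2 just below it and TBBC 3 far below it. The log2 fold change was -1.46 ± 0.83 (SE, n = 3 per group), or 2.76-fold lower. TBBC 3 decides its size, as the value was -0.58 without TBBC 3 and -0.17 within slide 1, where TBBC 1 is the lone treated array. Part of the distance came from the vehicle rats too, as it was -1.03 without vehicle 3.

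A second, dimmer Gclc probe gave the same order of arrays, but for TBBC 1 and vehicle 2, which changed places. Probe A_44_P228874 had log2 levels of 1.78, 0.66 and -1.88 in TBBC 1 to 3, against 1.12, 1.65 and 2.94 in vehicle 1 to 3, and a log2 fold change of -1.72. The 2 probes of Gclc differed by an amount that varied within groups with a pooled SD of 0.23. The spread of Gclc between animals was thus seen with each of its probes. The signals behind these levels were far above background, from 256 in TBBC 3 for the dimmer probe to 163690 in vehicle 3 for the brighter probe A_64_P056846.

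Gclm, the modifier subunit that lets the ligase work at lower glutamate, had log2 levels of -2.68, -3.93 and -5.70 in TBBC 1 to 3, against -5.27, -4.73 and -3.59 in vehicle 1 to 3. The groups overlapped fully, and TBBC rats held both the highest and the lowest value. The log2 fold change was 0.43 ± 0.81 (SE), and its sign rests on TBBC 1, as it was -0.29 without that array and 1.22 without TBBC 3. Within slide 1 it was 1.85. Gclm was read by 1 dim probe, with signals of 153, 56.7 and 18.1 in TBBC 1 to 3, against 25.8, 38.4 and 86.5 in vehicle 1 to 3. All 6 were well above background, and the lowest signal so marked on any array ranged from 14.5 to 17.4, so the TBBC 3 value of Gclm lies near the limit of detection.

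Gclm and Gclc moved together from animal to animal, but at a different distance in each group. The level of Gclm minus that of Gclc within an array was -8.95, -9.38 and -8.90 in TBBC 1 to 3, against -10.98, -11.02 and -10.89 in vehicle 1 to 3. The groups were far apart and did not overlap, while the arrays of each group lay close together. The mean difference was -9.08 ± 0.26 in TBBC rats and -10.96 ± 0.07 in vehicle rats (SD, n = 3), a shift of 1.89, so that Gclm was 3.70-fold higher relative to Gclc in the TBBC group. With the dimmer Gclc probe the shift was 2.14, and the groups again did not overlap (-4.29 ± 0.41 in TBBC rats and -6.43 ± 0.08 in vehicle rats). Because the difference is taken within an array, a scaling factor of the array cancels in it. Over all alternative settings and arrays left out in turn, the shift ran from 1.78 to 2.04, and within slide 1 it was 2.01. Settings that rescale an array by a single factor or change the test alone cannot move the shift, so they carry no weight here. The shift belongs to the contrast used to choose the genes and is given without a test.

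How closely Gclm followed Gclc inside the groups was not part of the choice of genes. After the group means were taken out, the difference between Gclm and Gclc had a pooled within-group SD of 0.19, about that between the 2 probes of Gclc itself. Among 12297 named genes Gclm ranked 2nd for closeness to Gclc on this measure, behind Ppfia4, and the median over those genes was 1.27. With the dimmer Gclc probe Gclm again ranked 2nd, at 0.29 beside a median of 1.49. Both medians largely reflect the spread of Gclc itself, whose SD was 1.59 in TBBC and 0.80 in vehicle rats. Most transcripts varied little (median SD 0.228 and 0.125), so they lie about that far from Gclc whatever their pattern. Only genes that vary about as much as Gclc can rank near it, and the medians are no yardstick for a shared pattern. This measure was added after the values had been seen, and it rests on 6 arrays with 4 degrees of freedom, so it is a description.

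**Figure D2:**
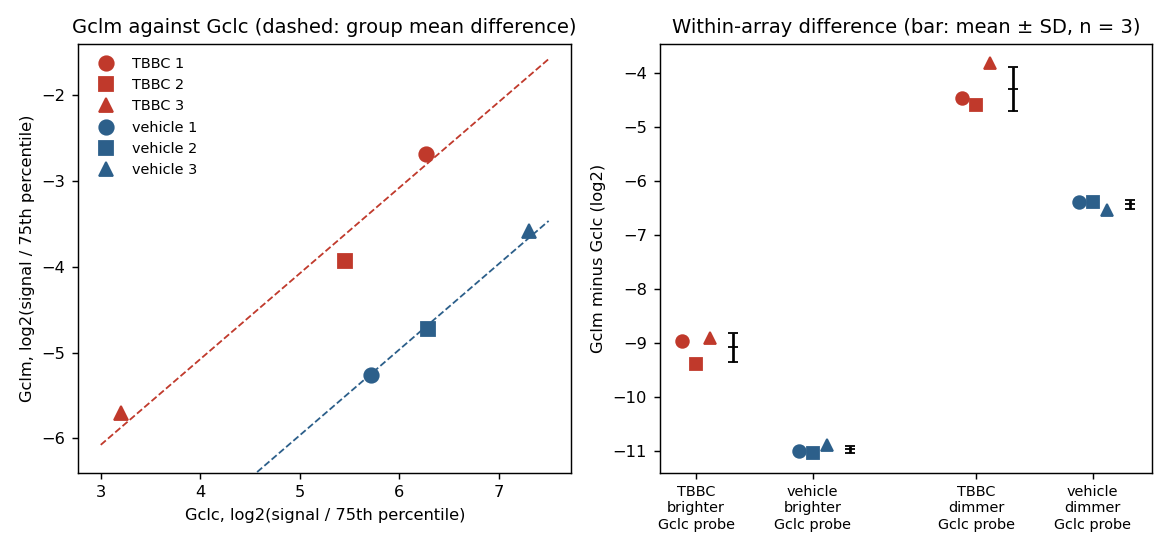
Left, Gclm against Gclc (brighter Gclc probe) in each array, both as log2 of signal over the array's 75th percentile, with dashed lines at each group's mean difference. Right, Gclm minus Gclc within each array for the brighter and the dimmer Gclc probe, with mean ± SD (n = 3). The TBBC arrays lie on a line 1.89 above that of the vehicle arrays, and both genes are lowest in TBBC 3.

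Glutathione synthetase varied over a narrower range, and among treated rats it was highest in TBBC 2, where Gclc was highest in TBBC 1. Its difference from Gclc had a pooled within-group SD of 0.88, which placed it 136th of 12297 named genes for closeness to Gclc. Gss had log2 levels of 3.30, 3.44 and 2.60 in TBBC 1 to 3, against 2.85, 3.29 and 3.80 in vehicle 1 to 3. TBBC 3 was the lowest and vehicle 3 the highest array, as for Gclc, and the groups overlapped. The log2 fold change was -0.20 ± 0.32 (SE). Its sign turned without TBBC 3 (0.06) or without vehicle 3 (0.04).

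The 3 synthesis genes varied more between vehicle rats than most transcripts. The choice of genes was not made on this measure, but the values of these arrays were then in view, so it is a description. The SD among the 3 vehicle rats was 0.80 for Gclc, 0.86 for Gclm and 0.48 for Gss, where the median over transcripts was 0.12. A larger vehicle SD was found in 1.88% of transcripts for Gclc, 1.63% for Gclm and 6.00% for Gss. In each of the 3 genes vehicle 3 was the highest and vehicle 1 the lowest vehicle array. The share of all transcripts with this order is not given, and Gclc and Gclm moved together, so nothing is read from it. Among the members outside synthesis, the share of transcripts with a larger vehicle SD ran from 10.2% for Slc7a11 to 74.7% for Gsr.

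Cystine uptake showed the largest difference of the members. Slc7a11, the cystine-glutamate exchanger, had log2 levels of 1.72, 2.89 and -1.08 in TBBC 1 to 3, against -5.41, -4.95 and -5.69 in vehicle 1 to 3 (probe A_42_P576446). Every TBBC array was higher than every vehicle array, and TBBC 3 was again the lowest of its group. The log2 fold change was 6.52 ± 0.96 (SE), or 92.0-fold, and the TBBC arrays stood 7.07, 8.24 and 4.27 above the vehicle mean. This probe was well above background in vehicle 1 and vehicle 2, at signals of 23.4 and 33.1, and not in vehicle 3, at 20.2, so the size of the fold depends on the treatment of background: with normexp correction and an offset of 50 the log2 fold change was 4.55.

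In the vehicle rats the other 2 probes of Slc7a11 were never well above background. Probe A_44_P112201 had log2 levels of -1.70, -0.64 and -5.15 in TBBC 1 to 3 and was at least 10.9-fold higher in TBBC rats, with measured group means of -2.49 in TBBC and -8.20 in vehicle rats. Probe A_64_P041166 had -2.43, -1.25 and -5.28 in TBBC 1 to 3 and was at least 7.77-fold higher, with measured means of -2.99 and -7.77 in TBBC and vehicle rats. These bounds set the mean of the TBBC rats against the mean, per vehicle array, of the higher of the probe's own signal and the lowest signal marked well above background. All 3 probes put TBBC 2 highest and TBBC 3 lowest among the treated rats. The SD of Slc7a11 among TBBC rats was 2.04, and 0.225% of transcripts had a larger one.

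**Figure D3:**
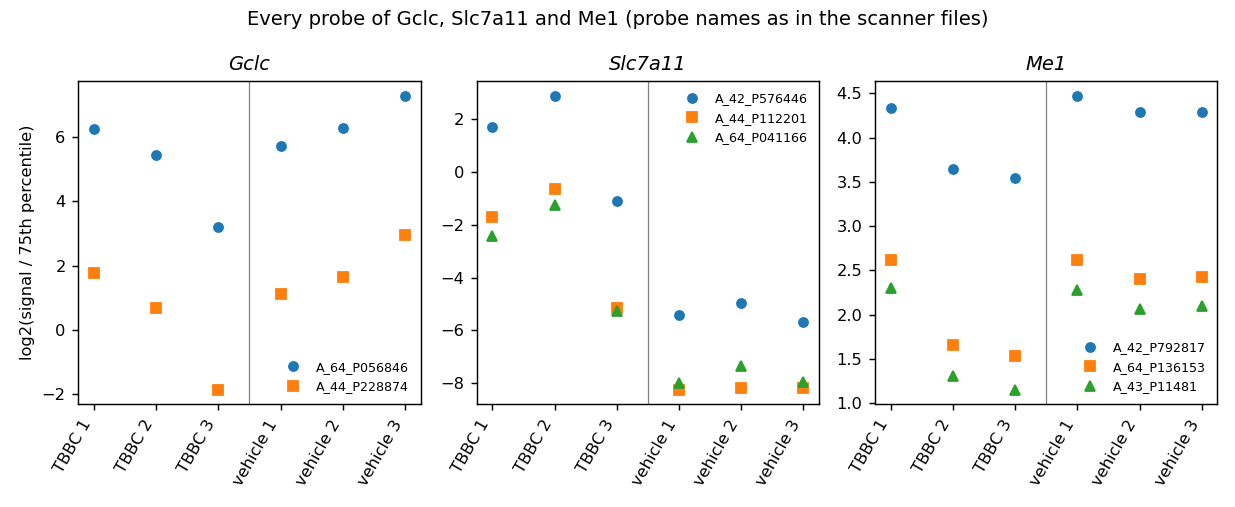
Level (log2 of signal over the array's 75th percentile) of every probe of Gclc, Slc7a11 and Me1, the members with more than 1 probe, in each TBBC array (left of the line) and each vehicle array. The probes of a gene give a like pattern over arrays; the 2 dimmer Slc7a11 probes were not well above background in vehicle rats.

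Ggt1, the brush border enzyme that recovers the parts of glutathione, had log2 levels of 5.14, 5.63 and 5.31 in TBBC 1 to 3, against 5.43, 5.59 and 5.98 in vehicle 1 to 3. The groups overlapped through TBBC 2, and the log2 fold change was -0.31 ± 0.20 (SE). Ggt1 lies in the proximal tubule, and all 10 of the markers listed for that segment were measured. Their summed level (signal over the 75th percentile) was 1811, 2277 and 2160 in TBBC 1 to 3, against 2480, 2245 and 2336 in vehicle 1 to 3. Of these markers 0 passed in limma, and 2 had an unadjusted p under 0.05, beside 20.0% of all transcripts. Of the 10, 9 were lower in TBBC rats, with a median log2 fold change of -0.18, and in Aqp1 (-0.77 ± 0.17) and Lrp2 (-0.37 ± 0.10) the groups did not overlap. Of all transcripts, 15.2% were lower without overlap. All 5 thick ascending limb markers were also lower (median -0.50), 3 of them without overlap, among them Egf (-1.33 ± 0.28) and Umod (-0.91 ± 0.33). So were all 5 podocyte markers (median -0.28), 4 of 5 endothelium markers (median -0.27, 3 without overlap) and 5 of 7 distal and collecting duct markers (median -0.32). None of these passed, and their part in the members' values was not tested. In such bulk samples, fewer cells of a type and less RNA per cell cannot be told apart.

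Among the recycling enzymes, Gsr, the NADPH-dependent reductase of oxidised glutathione, had log2 levels of 1.19, 1.18 and 0.60 in TBBC 1 to 3, against 0.79, 0.68 and 0.66 in vehicle 1 to 3. TBBC 1 and TBBC 2 lay above the vehicle range and TBBC 3 below it, and the log2 fold change was 0.28 ± 0.18 (SE). Glrx, the glutaredoxin that removes glutathione from protein thiols, had 1.25, 0.85 and 1.38 in TBBC 1 to 3, against 1.55, 1.73 and 1.60 in vehicle 1 to 3. The groups did not overlap, and its log2 fold change was -0.47 ± 0.16 (SE). Glrx and Ggt1 were the members in which TBBC 3 was not the lowest treated array. Me1, the cytosolic malic enzyme, had log2 levels of 4.33, 3.64 and 3.55 in TBBC 1 to 3, against 4.47, 4.29 and 4.29 in vehicle 1 to 3. TBBC 1 lay inside the vehicle range and the other TBBC arrays below it, which gave a log2 fold change of -0.51 ± 0.22 (SE) and of -0.02 within slide 1. The other 2 probes of Me1 had log2 fold changes of -0.55 and -0.56. Both low Me1 arrays were on slide 2, which held no vehicle array, so slide and treatment cannot be told apart for them.

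TBBC 3 was the lowest treated array in 6 of the 8 members, beside 34.4% of all transcripts. It was also the lowest in 5 of 11 genes of the glutathione cycle list, 8 of 15 of cysteine supply, 10 of 18 of thiol recycling, 10 of 19 of NADPH supply and 4 of 6 around Nrf2. Among markers, it was the lowest treated array in 5 of 5 for podocytes, 4 of 5 for endothelium and 0 of 10 for the proximal tubule. For the thick ascending limb this held in 1 of 5, and for the distal and collecting duct in 4 of 7. TBBC 3 also differed from the other treated rats in markers of leukocytes and fibroblasts. The 8 macrophage markers measured (Cd163 was too dim to be tested) had a summed level of 70.2, 76.4 and 155 in TBBC 1 to 3, against 80.5, 78.6 and 97.0 in vehicle 1 to 3. The 7 lymphocyte markers summed to 1.19, 1.19 and 2.17 in TBBC 1 to 3, against 1.23, 1.49 and 1.50 in vehicle rats, and the 5 fibroblast markers to 21.1, 15.2 and 38.4, against 19.3, 22.1 and 22.9. Such sums follow the brightest genes, as Lyz2 for macrophages and Cd3d for lymphocytes. The median log2 level relative to the vehicle mean was 0.09, -0.19 and 0.83 in TBBC 1 to 3 for macrophage markers. It was -0.27, -0.66 and 0.64 for lymphocyte and -0.11, -0.75 and 1.24 for fibroblast markers. Cd2 in TBBC 1 and TBBC 2, Cd79b in TBBC 2 and Itgam in vehicle 1 were not well above background. The part of these cell types in the low Gclc, Gclm and Gss of TBBC 3 was not tested. Of 4 injured tubule markers tested, Havcr1 and Spp1 rose and the other 2 did not pass. The 4 had a summed level, mostly of Spp1, of 155, 265 and 254 in TBBC 1 to 3, against 9.63, 7.17 and 7.51 in vehicle 1 to 3. Havcr1 had log2 levels of 1.33, 3.83 and 0.99 in TBBC 1 to 3, and was the 1 marker of the 4 with TBBC 3 as its lowest treated array. Spp1 had 7.23, 7.94 and 7.93 in TBBC 1 to 3, so TBBC 1 was its lowest. TBBC 3 was the highest treated array for Lcn2 (-0.64, 1.94 and 2.23 in TBBC 1 to 3) and Vim (0.69, 0.78 and 1.55). The part of these markers was not tested.

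The named genes closest to Gclc over all 6 arrays, by the root mean square difference of log2 levels relative to the vehicle mean, were Mrap (0.48), Aadat (0.48), Mbl1 (0.53), Or8c15b (0.54) and Mme (0.56). The probe of Or8c15b was not well above background in TBBC 2 and TBBC 3, so its distance is not a measured one. Aadat, an aminotransferase of lysine and kynurenine breakdown, had 3.77, 2.82 and 2.07 in TBBC 1 to 3, against 3.70, 4.09 and 5.18 in vehicle 1 to 3. Mme, the brush border peptidase neprilysin, had 2.10, 0.63 and 0.28 in TBBC 1 to 3, against 1.75, 2.35 and 3.15 in vehicle 1 to 3. In both, TBBC 3 was the lowest and vehicle 3 the highest array, as in Gclc. On this measure, which includes the group difference, Gclm lay 1.34 from Gclc and Gss 1.14, which placed them 2645th and 505th of 12297 named genes.

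Other genes of these pathways were taken from 4 lists, not picked for how they moved. Of 66 genes listed, 63 were tested, and 3 rose, 0 fell and 60 did not pass (limma, Benjamini-Hochberg). In all, 0.255% of transcripts were called higher and 0.276% lower. The lists' median log2 fold change was -0.04, beside -0.02 for all transcripts, and the groups did not overlap in 15 genes that were higher and 16 that were lower, beside 13.1% and 15.2% of all transcripts. The plot of the pathway lists shows their fold changes, with 1 gene left out.

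**Figure D4:**
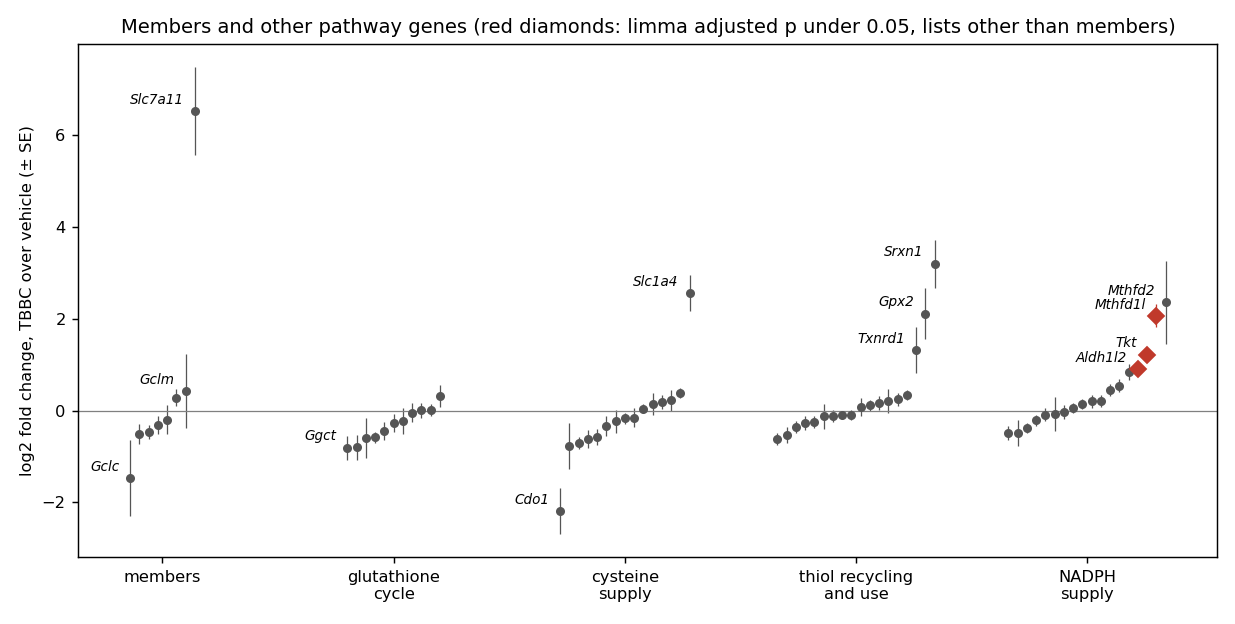
Log2 fold change, TBBC over vehicle, ± SE, for the members (no test) and for the other genes tested in 4 pathway lists (1 gene left out), ordered by size within a list. Red diamonds mark the genes past an adjusted p of 0.05 in limma, which are Tkt, Mthfd1l and Aldh1l2 of the NADPH list. Slc1a4 is drawn at its measured value, though it was not well above background in vehicle rats.

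The 3 genes that rose were all on the NADPH supply list, in which 19 of 20 genes were tested and 0 fell (median 0.21, with 12 positive and 7 negative). Tkt, transketolase of the non-oxidative pentose phosphate branch, had log2 levels of 8.72, 9.11 and 8.65 in TBBC 1 to 3, against 7.65, 7.63 and 7.53 in vehicle 1 to 3. It rose 2.33-fold, with a log2 fold change of 1.22 ± 0.15 (SE, limma adjusted p = 0.0387). Mthfd1l, which releases formate from folate in mitochondria, had -2.42, -2.12 and -3.11, against -4.60, -4.69 and -4.56, and rose 4.19-fold (2.07 ± 0.25, limma adjusted p = 0.0384). Aldh1l2, a mitochondrial folate enzyme that makes NADPH, had -2.71, -2.84 and -2.79, against -3.78, -3.72 and -3.54, and rose 1.87-fold (0.90 ± 0.11, limma adjusted p = 0.0388). Of these 3, Aldh1l2 is the enzyme that makes NADPH itself.

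These 3 calls were close to the threshold. With slide as a random block their limma adjusted p was 0.0534 for Tkt, 0.0511 for Mthfd1l and 0.0511 for Aldh1l2, and with slide as a fixed term it was 0.182, 0.167 and 0.151. With each array left out in turn, Tkt and Mthfd1l kept the call in 1 of 6 fits and Aldh1l2 in 0 of 6.

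Mthfd2, the mitochondrial methylene-tetrahydrofolate dehydrogenase, was at 2.36 ± 0.91 and did not pass, with TBBC 2 at 2.60 and the other treated rats at -0.47 and -1.05, against -1.89, -1.99 and -2.11 in vehicle rats.

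In the list of cysteine and glutamate supply, 0 of 15 genes passed, and the median was -0.17. At an unadjusted p under 0.05 in limma there were 6, beside 20.0% of all transcripts. Slc1a4, a neutral amino acid transporter, was well above background in every TBBC rat and in 0 of 3 vehicle rats. It was at least 3.86-fold higher in TBBC rats and did not pass (limma adjusted p = 0.0571), with measured log2 levels of -3.79, -3.35 and -4.85 in TBBC 1 to 3, against -6.85, -6.58 and -6.25 in vehicle 1 to 3. Cdo1, the dioxygenase that degrades cysteine, was at -2.19 ± 0.50 (limma adjusted p = 0.103), with -3.61, -5.11 and -5.01, against -2.84, -2.70 and -1.62. The groups of Cdo1 did not overlap. Those of Slc1a4 did not either, but its probe passed the filter on dim probes through the TBBC rats only. Nothing is therefore read from its separation or its adjusted p. Bhmt, which remethylates homocysteine, was at -0.78 ± 0.50. Slc3a2, the heavy chain that carries Slc7a11 to the membrane, was at 0.14 ± 0.24, with 5.06, 4.86 and 4.15 in TBBC 1 to 3, against 4.58, 4.53 and 4.56 in vehicle 1 to 3; it was chosen here for its place beside Slc7a11, after its value had been seen.

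In the list of glutathione breakdown and the gamma-glutamyl cycle, 0 of 11 genes passed, and the median was -0.27. At an unadjusted p under 0.05 in limma there were 3, beside 20.0% of all transcripts. The largest differences were in Ggct, the gamma-glutamylcyclotransferase (-0.81 ± 0.26), Dpep1, the brush border dipeptidase that follows Ggt1 (-0.80 ± 0.27), and Anpep, an aminopeptidase of the same membrane (-0.60 ± 0.44). The groups of Ggct and Dpep1 did not overlap and those of Anpep did.

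In the list of thiol recycling and use, 0 of 18 genes passed, and the median was -0.01. At an unadjusted p under 0.05 in limma there were 7, beside 20.0% of all transcripts. Srxn1, the sulfiredoxin that repairs overoxidised peroxiredoxins, had log2 levels of 4.42, 5.17 and 3.05 in TBBC 1 to 3, against 0.73, 1.00 and 1.30 in vehicle 1 to 3, a log2 fold change of 3.20 ± 0.52 (SE, limma adjusted p = 0.0641). Gpx2, a glutathione peroxidase best known from the gut, was at 2.11 ± 0.55 (limma adjusted p = 0.126), and Txnrd1, the cytosolic thioredoxin reductase, at 1.33 ± 0.50 (limma adjusted p = 0.216). The groups did not overlap in any of these 3 genes, and TBBC 2 was the highest array in each. Srxn1 did pass in some alternative settings, among them normexp correction, trend and robust moderation in limma, and the fit without TBBC 3.

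Genes around Nrf2 give the setting of these values. Nqo1, a quinone reductase and classical Nrf2 target, had log2 levels of 2.26, 1.59 and 1.11 in TBBC 1 to 3, against -3.03, -3.17 and -2.41 in vehicle 1 to 3, and was the gene of this group of 6 that passed (4.53 ± 0.34, limma adjusted p = 0.0140), with the call kept in 3 of 6 fits that left out 1 array. Hmox1, heme oxygenase 1, was at 2.33 ± 0.84, Bach1, a repressor at the same elements, at 1.07 ± 0.30, and Mafg, a small Maf partner of Nrf2, at 0.42 ± 0.12; the groups of these 3 did not overlap and none passed. Nfe2l2, which encodes Nrf2, was at -0.01 ± 0.21 and Keap1, its inhibitor, at 0.12 ± 0.10, without passing. The groups of Keap1 did not overlap either (0.43, 0.40 and 0.36 in TBBC 1 to 3, against 0.25, 0.22 and 0.35 in vehicle 1 to 3), while those of Nfe2l2 did. In Nqo1, as in Gclc and Gclm, TBBC 1 was the highest treated array and TBBC 3 the lowest, while Slc7a11, Srxn1, Txnrd1 and Hmox1 were highest in TBBC 2.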

How the data were processed

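Scanner output deposited by the authors gives spot intensity from Agilent Feature Extraction; the headers give version 10.7.1.1 and the submitters' processing notes 10.7. Its processed signal is background-subtracted and detrended per array, without scaling across arrays, per the file headers. The authors' value table, also deposited, is a linear ratio that matched the processed signal over the array's 75th percentile within 0.232% (neither logged nor centred); its column medians were 0.113, 0.107 and 0.114 for TBBC 1 to 3 and 0.111, 0.112 and 0.113 for vehicle 1 to 3. From the 62976 spots, 1439 control spots were left out. Probes were named by matching transcript accessions, without versions, to a RefSeq gene table of GRCr8; the headers name build rn4, so gene coordinates are not given. Levels are log2 of signal over the 75th percentile of the array, and 0 to 9 flagged spots per array were left out. Tested probes had to exceed background clearly on all arrays of 1 group or more, flagged spots aside. Groups were compared with limma 3.58.1 (lmFit, eBayes, two-sided) in R 4.3.3, and slide as a random block used statmod 1.5.0. The number of arrays limits the precision.

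The procedure was tested on simulated data. Alternatives were other scalings, normexp (on the median signal, with an offset of 50), the value table, other filters, other ways of combining probes, slide, the replicate number as a block and each array left out. The named genes are all members, each list's genes past the threshold and its 3 largest differences, the Nrf2 group and the 5 genes closest to Gclc; 1 gene that this rule takes from the NADPH list is not reported here. Members, lists and this rule were chosen with earlier results of these data known. Same-numbered arrays did not deviate together (r = -0.09, 0.03 and -0.07 for numbers 1 to 3), so the numbers were not taken as pairs.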

Additional observations from a re-analysis of the deposited data

How the results depend on the processing

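The direction of each member was the same under all alternatives except for Gclm without TBBC 1 and Gss without TBBC 3 or vehicle 3. The count of 0 members past the threshold became 1, Slc7a11, in some settings. Among fits with more than 1 array per group, these were normexp, every probe tested singly, trend and robust moderation, and the fit without TBBC 3. This count ran from 0 to 1 with 1 array left out. Slc7a11 was picked on this contrast, and its probes passed the filter on dim probes through the TBBC rats only. Nothing is therefore read from its passing. The count of 175 transcripts became 761 with normexp, 52 with no filter on dim probes, 333 with every probe tested singly, 1087 with trend and robust moderation, 48 with slide as a fixed term, 307 within slide 1, 0 with the replicate block, and 6 to 274 with 1 array left out: 58 without TBBC 2 and 274 without TBBC 3, and 10, 6 and 14 without vehicle 1, 2 and 3. The count of 3 other pathway genes became 5 with normexp, 9 with trend and robust moderation, and 0 with no filter, with slide as a term, fixed or random, and with the replicate block; it ran from 0 to 5 with 1 array left out, being 5 without TBBC 3 and 0 without any other array. The causes were not tested. The numbers do not pair the animals, so the block is given for its count only. Slc7a11 has no value when every array must be above background. Within slide 1, TBBC 1 is the lone treated array and is assumed to vary like the vehicle rats. Gclm and the vehicle values of Slc7a11 and Slc1a4 are limited by signal over background.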

Other observations

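Beside Gclm, the named genes whose levels followed Gclc most closely inside the groups were Ppfia4, Cyp2d1, Cyp2d5, Slc22a22 and Akr1c12l1, chosen after their values were seen. The pooled within-group SD of their difference from Gclc was 0.19, 0.32, 0.32, 0.33 and 0.39. Cyp2d1, a cytochrome P450, had log2 levels of 4.62, 3.31 and 0.90 in TBBC 1 to 3, against 4.52, 5.24 and 5.70 in vehicle 1 to 3. Cyp2d5 is a near copy of Cyp2d1 and their probes may share transcripts. Slc22a22, a transporter of the organic ion family, had 2.02, 1.11 and -0.69 in TBBC 1 to 3, against 2.53, 3.09 and 3.41 in vehicle 1 to 3. Like Gclc, these were lowest in TBBC 3 and highest in vehicle 3. Akr1c12l1 had 0.56, -0.77 and -1.95 in TBBC 1 to 3, against 1.03, 1.62 and 2.41 in vehicle 1 to 3.

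Transcripts of the liver were uneven among the vehicle arrays. Alb, which encodes albumin, had log2 levels of -3.61, -2.97 and -6.44 in TBBC 1 to 3, against 2.39, -3.46 and -0.13 in vehicle 1 to 3, and Ttr, Fabp1, Apoc1, Itih3 and Itih4 were likewise highest in vehicle 1, followed by vehicle 3. These 6 genes were picked after their values were seen, and Alb and Ttr in TBBC 3 and Apoc1 in TBBC 2 were not well above background. Gclc, Gclm and Gss were at their lowest among vehicle rats in vehicle 1, the array in which these liver transcripts were highest; their part in those values was not tested.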
